A study of Mus musculus with 29 samples.

Results

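PKCε loss was set on top of PKCδ ablation in unstressed mouse hearts: the 4 libraries of hearts with combined ablation of PKCδ and PKCε were compared with the 3 libraries of PKCδ-ablated hearts. These 7 of the 29 libraries of the series were chosen by their labels, and all 23420 genes of the count files were considered, of which 13765 passed a filter on low counts and were tested. All unstressed hearts were from C57BL/6J mice labelled 12 weeks old and male. Both groups carry the postnatal cardiac ablation of PKCδ, and the combined hearts add a germline knockout of PKCε, which is not limited to cardiac cells. The promoter that drives the recombination of Prkcd and the exons removed could not be taken from the sources used here. Wild-type hearts (n = 4) and PKCε-knockout hearts (n = 3), also unstressed, and the same 4 genotypes 4 weeks after TAC (transverse aortic constriction, in which the aorta is narrowed by surgery), served for comparison. The TAC hearts were labelled 12 weeks old too, and their sex labels were not all male.

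Protein kinase C isoforms are serine and threonine kinases. PKCδ and PKCε belong to the calcium-independent, diacylglycerol-activated class, and in cardiac myocytes they act downstream of Gq-coupled receptors such as the α1-adrenergic, angiotensin and endothelin receptors. PKCε is known for binding to the anchoring protein RACK2, for targets at the sarcomere and mitochondria, and for activating protein kinase D, which phosphorylates class IIa histone deacetylases and so relieves the repression of MEF2. PKCδ and PKCε are often described as acting in opposite directions on cell survival, with overlapping roles in cardiac growth.

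Polyadenylated RNA of the ventricular apex was sequenced, per the protocol; the label of the tissue says whole heart. Reads assigned to genes numbered 12384526 to 15264623 in the combined libraries and 11376690 to 13285459 in the PKCδ libraries, and levels are given in CPM, which divides counts by TMM-scaled library sizes. The 14 markers of ventricular myocytes summed to 109600 to 116500 CPM in combined libraries and 100300 to 103800 CPM in PKCδ libraries. Markers of the sex chromosomes went against the labels. All 3 PKCδ libraries held Xist, the RNA of the inactive X chromosome, at 132.5 to 152.7 CPM with at most 1 read of 4 Y-linked genes. Combined libraries 2 and 4 held Xist at 125.3 and 121.9 CPM with 25 and 11 Y-linked reads, library 1 held Y-linked transcripts at 42.9 CPM with 2.63 CPM of Xist, and library 3 held both, at 26.2 and 40.8 CPM. Sex by these markers is thus partly confounded with genotype here, and the sex label, male in all unstressed libraries, cannot adjust for it. Combined libraries 2 and 4 also differed little from each other, with a chi-square per degree of freedom of 1.58 over genes, against 10.3 to 15.9 for the other pairs of that group and 5.21 to 8.70 for the PKCδ pairs. That is above sampling noise, so both were kept. Nothing says which libraries come from separate animals, and the p-values rest on the spread among libraries, which may be technical.

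The test called 3267 of 13765 genes (23.7%), 1716 higher in combined hearts (12.5%) and 1551 lower (11.3%), at an adjusted p below 0.05 in edgeR's quasi-likelihood test. The change reached 2-fold in 295 of them (2.14% of genes), 160 higher and 135 lower, and in 176 (1.28%) when the offset for GC content described next was required to call them too. The libraries of the 2 groups did not overlap in 4726 genes (34.3% of those tested). The count fell to 1439 without PKCδ library 3 and to 1164 without combined libraries 1 and 3, the libraries with Y-linked transcripts, an alternative chosen after seeing the data. It leaves combined libraries 2 and 4, which differed little from each other and may not be separate hearts. Calls kept in it, here and below, therefore rest on that close pair. With libraries 2 and 4 added up as 1 library, 3129 genes were called.

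The direction of change followed the GC content of the transcripts. In the lowest of 5 equal classes of GC content, 2.16% of genes were called higher in combined hearts and 24.6% lower, with a median log2 fold change of -0.23. In the highest class 34.0% were called higher and 1.32% lower, with a median of 0.26. The tilt stood in every library of the comparison. The highest class lay above the lowest by 0.22 to 0.35 on the log2 scale in the 4 combined libraries, against -0.33 to -0.06 in the 3 PKCδ libraries, both relative to the mean of the 14 unstressed libraries. The GC shift and the genotype cannot be told apart in these libraries. An offset that removed the trend within each library, also chosen after seeing the data, left 1803 genes called (13.1%), 992 higher (7.21%) and 811 lower (5.89%). The fits with and without the offset shared 1334 calls (9.69% of genes), 698 higher (5.07%) and 636 lower (4.62%), with 0 in opposite directions. Below, "called in both fits" refers to these, and rose and fell are used of them alone. Where 2 adjusted p values are given, the second is that with the GC offset.

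**Figure D1:**
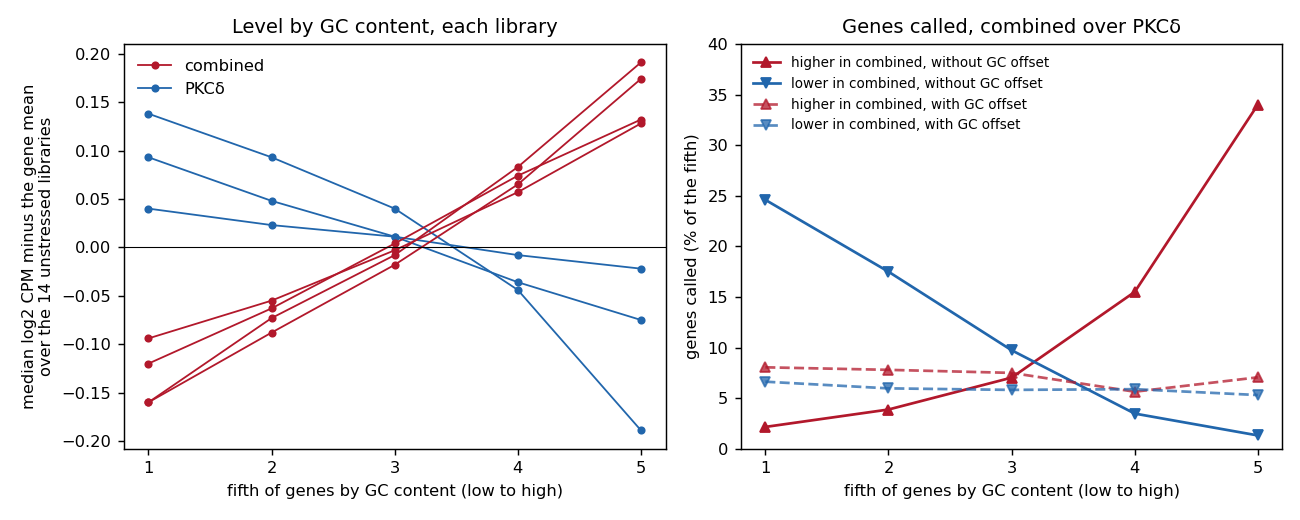
Left, the median log2 CPM of genes in each of 5 classes of GC content, relative to each gene's mean over the 14 unstressed libraries, with 1 line per library; the 4 combined libraries go up with GC content and the 3 PKCδ libraries go down. Right, the percentage of genes in each class called higher or lower in combined hearts, without the GC offset (solid lines, from 2.16% to 34.0% for higher and 24.6% to 1.32% for lower) and with it (dashed lines, between 5.31% and 8.05%).

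The label of the added knockout fitted the level of its transcript. Prkce (GRCm38, chromosome 17, 86167785 to 86657919) stood at 7.69, 7.40, 7.51 and 6.59 CPM in the 4 combined libraries, against 42.9, 43.7 and 42.4 CPM in the 3 PKCδ libraries. The groups lay far apart, with a log2 fold change, here and below with its SE, of -2.56 ± 0.29 (adjusted p = 1.3e-05 and 2.2e-05). PKCε-knockout hearts held 8.41 ± 0.78 CPM (SD, n = 3), against 49.6 ± 2.48 CPM in wild type (SD, n = 4). Prkcd, whose ablation both groups share, stood at 11.4, 16.4, 13.2 and 15.4 CPM in combined libraries, against 18.7, 16.3 and 17.6 CPM in PKCδ libraries. These levels overlapped, and the fold change of -0.32 ± 0.13 was not called (adjusted p = 0.074 and 0.062). PKCε hearts held 18.8 ± 1.1 CPM of Prkcd (SD, n = 3) and wild-type hearts 15.1 ± 1.2 CPM (SD, n = 4). The PKCδ libraries thus held no less Prkcd than wild type, and the ablation left no visible fall in these counts. Such counts, summed over the gene and over every cell of the tissue, give no check of exons deleted in cardiac cells.

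Of the genes named, Kcnj14, an inward-rectifier potassium channel gene, rose most. It stood at 47.9, 37.9, 30.8 and 39.0 CPM in combined libraries, against 1.36, 0.84 and 0.61 CPM in PKCδ libraries (5.39 ± 0.97 on the log2 scale, adjusted p = 0.00079 and 0.0014). PKCε hearts (0.89 ± 0.13 CPM) and wild-type hearts (0.81 ± 0.30 CPM) were as low as PKCδ hearts.

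Of the other genes with large rises, several were much higher in combined libraries 1 and 3 than in 2 and 4. Pygl, the liver form of glycogen phosphorylase, stood at 65.0 and 40.4 CPM in combined libraries 1 and 3 and at 8.50 and 7.35 CPM in 2 and 4, against 4.18 to 5.44 CPM in PKCδ libraries (2.66 ± 0.72). Cyfip2, a subunit of the actin-regulating WAVE complex, stood at 392 and 318 CPM in combined libraries 1 and 3 and at 165 and 175 CPM in 2 and 4, against 63.3 to 76.8 CPM in PKCδ libraries (1.94 ± 0.60). Slc9a3 (2.75 ± 0.61), a sodium-proton exchanger of epithelia, the transmembrane protease gene Tmprss13 (1.95 ± 0.52) and Lad1 (1.52 ± 0.38), an anchoring filament protein of basement membranes, had the same order. Without combined libraries 1 and 3 the calls of Pygl, Cyfip2, Slc9a3, Tmprss13 and Lad1 ended (adjusted p = 0.48, 0.22, 0.058, 0.28 and 0.13). The call of Cyfip2 also ended without any of the 3 PKCδ libraries or combined library 1, that of Pygl without PKCδ library 3 or combined library 1, and that of Tmprss13 without PKCδ library 3.

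A further set kept its calls without combined libraries 1 and 3, that is with the close pair of libraries 2 and 4 alone. Igfals, which encodes the acid-labile subunit that carries insulin-like growth factors in blood, stood at 48.4, 35, 30.0 and 31.0 CPM in combined libraries, against 8.93, 11.5 and 8.55 CPM in PKCδ libraries (1.91 ± 0.26, adjusted p = 7.8e-05 and 0.00014). Pacsin1, an endocytic adaptor of neurons, stood at 6.93 to 13.4 CPM in combined libraries, against 1.13 to 2.01 CPM in PKCδ libraries (2.55 ± 0.42). The scaffold gene Ush1c (1.85 ± 0.44), the synaptic adhesion gene Lrrc4b (1.79 ± 0.44) and the ubiquitin ligase genes Rnf157 (1.90 ± 0.47) and Rnf208 (1.63 ± 0.32) rose as well. Rpph1, the RNA component of ribonuclease P, which is not polyadenylated, rose by 1.5 ± 0.36 with an adjusted p of 0.0048 and 0.049. Outside that set, the predicted gene Gm6548 rose by 1.53 ± 0.52 (adjusted p = 0.038 and 0.047), a call that ended without PKCδ library 2 or 3, or without combined library 1, 3 or 4. Its adjusted p was 0.17 without combined libraries 1 and 3.

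Fmn1, a formin that nucleates actin filaments, fell most of the genes named. It stood at 5.47, 2.86, 3.09 and 2.40 CPM in combined libraries, against 48.7, 47.0 and 46.8 CPM in PKCδ libraries (-3.77 ± 0.64, adjusted p = 0.00050 and 0.0013). PKCε hearts (2.05 ± 0.98 CPM) and wild-type hearts (1.91 ± 0.25 CPM) lay near the combined hearts, so the PKCδ libraries were the high ones. Cd59a, an inhibitor of complement lysis, had the same layout. It stood at 25.4, 14.4, 21.6 and 15.4 CPM in combined libraries and 50.0, 52.4 and 56.7 CPM in PKCδ libraries (-1.47 ± 0.17, adjusted p = 7.9e-06 and 0.00016), while PKCε hearts held 18 to 29.3 CPM and wild type 17.2 to 19.6 CPM. Cntn2, an adhesion molecule that marks the conduction system, stood at 4.78, 1.76, 4.92 and 2.06 CPM in combined libraries and 14.5, 16.3 and 15.3 CPM in PKCδ libraries (-2.19 ± 0.47). Its wild-type level was 3.21 to 6.01 CPM. Cd59a has a close paralog, Cd59b, and reads shared by them are uncertain.

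Rgs4 and Anxa1 went below the level of every other unstressed group. Rgs4, which speeds the shut-off of Gq and Gi signals, stood at 7.07, 6.23, 6.59 and 6.25 CPM in combined libraries, against 22.2, 15.3 and 18.5 CPM in PKCδ libraries (-1.51 ± 0.18, adjusted p = 6.6e-06 and 1.9e-05). Wild-type libraries held 10.5 to 12.4 CPM, and combined hearts were called lower than those too (-0.78, adjusted p = 0.0011), in a comparison that called 3993 genes (29%). Anxa1, the annexin that dampens inflammation, stood at 2.56 to 4.10 CPM in combined libraries and 8.70 to 12.1 CPM in PKCδ libraries (-1.51 ± 0.21), with 7.75 ± 1.5 CPM in PKCε hearts and 8.20 ± 1.4 CPM in wild type (SD, n = 3 and 4). Slc1a4 (-1.72 ± 0.30), a neutral amino acid transporter, Manba (-1.5 ± 0.35), the lysosomal β-mannosidase, Abat (-1.24 ± 0.19), which degrades GABA, and the vessel-stabilising ligand gene Angpt1 (-1.24 ± 0.26) fell too. So did Plekhh1 (-1.31 ± 0.35), Nacad (-1.27 ± 0.20), the phospholipase gene Pla2g4b (-1.25 ± 0.35) and 2210015D19Rik (-1.18 ± 0.14). Wild-type means of Slc1a4, Plekhh1, Nacad and Pla2g4b were 3.28, 3.54, 3.24 and 1.4 CPM. Combined means were 3.41, 3.42, 4.64 and 3.47 CPM and PKCδ means 11.2, 8.56, 11.3 and 8.22 CPM. In these genes the PKCδ libraries were thus the high ones. 2210015D19Rik averaged 13.7 CPM in wild type, 11.3 CPM in combined and 25.6 CPM in PKCδ hearts. Abat and Angpt1 lay below wild type, at 6.66 and 10.1 CPM in combined and 13 and 19.5 CPM in wild-type hearts. The calls of Manba, Plekhh1 and Angpt1 ended without combined libraries 1 and 3 (adjusted p = 0.063, 0.15 and 0.057). Manba was uneven within wild type, at 7.93, 24, 25.4 and 7.96 CPM, against 6.72 to 10.4 CPM in combined and 22.8 to 27.3 CPM in PKCδ libraries. Levels like those of both groups thus occurred in wild-type hearts alone.

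**Figure D2:**
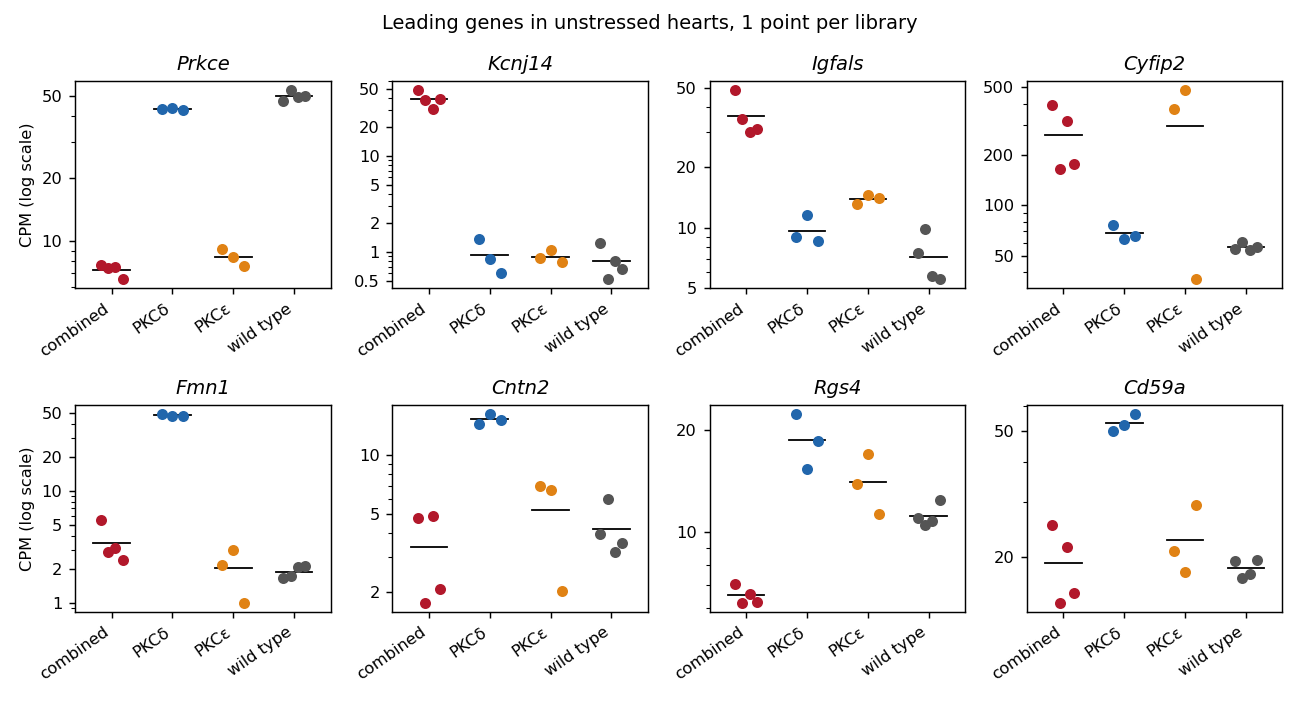
CPM on a log scale for 8 genes in the 4 unstressed genotypes, with 1 point per library and a line at the mean (n = 4 combined, 3 PKCδ, 3 PKCε and 4 wild type). Prkce is low in combined and PKCε libraries, Kcnj14 is high in combined libraries alone of these groups, and Fmn1, Cntn2 and Cd59a in PKCδ libraries.

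Counts of list members, here and below, are read against 23.7% of all genes called, 12.5% higher and 11.3% lower. In both fits these shares were 9.69%, 5.07% and 4.62%. Among the kinases themselves, 1 of 15 PKC and PKD genes was called higher and 5 lower, with 0 higher and 2 lower in both fits. Those that fell were Prkce and Prkch, the gene of PKCη, which is in the same calcium-independent class. Prkch stood at 16.8, 20.7, 19.9 and 19.4 CPM in combined libraries, against 25.8, 21.7 and 25.6 CPM in PKCδ libraries (-0.34 ± 0.10, adjusted p = 0.011 and 0.0097), a call that ended without PKCδ library 1 or 3 or without combined libraries 1 and 3. The protein kinase D isoform gene Prkd3 (-0.41 ± 0.10) was not called with the offset (adjusted p = 0.076). Upstream of the kinases, 3 of 29 genes of Gq, phospholipase C and diacylglycerol kinases were called higher and 2 lower. That is 17.2% in all, below the share of all genes, with 1 higher and 1 lower in both fits. Gnaq, the α subunit of Gq, fell by 0.41 ± 0.10 on the log2 scale, to 27.7 to 32.5 CPM in combined libraries, against 33.8 to 43.6 CPM in PKCδ libraries. Dgke, a kinase that removes diacylglycerol, rose by 0.44 ± 0.14, and its call ended without PKCδ library 2 or 3 or combined libraries 1 and 3. The phospholipase gene Plce1 (-0.27 ± 0.08) and the PKC substrate gene Marcksl1 (0.49 ± 0.16) were not called with the offset (adjusted p = 0.14 and 0.30).

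Genes of the branch that leads from PKD to class IIa histone deacetylases and MEF2 were higher in 10 of 18 cases and lower in 1 (61.1% in all). Their median log2 fold change was 0.28, against 0.01 over all genes, and their median GC content was 55.2%, against 50.0%. In both fits 3 were higher and 0 lower, and with the offset the median was 0.15. Mef2d, the MEF2 factor linked to the stress response of myocytes, stood at 274, 259, 317 and 256 CPM in combined libraries, against 186, 194 and 174 CPM in PKCδ libraries (0.58 ± 0.08, adjusted p = 2.5e-05 and 0.00019). Hdac4, which represses MEF2, stood at 58.3, 51.4, 67.7 and 55.1 CPM in combined libraries, against 34.5, 41.8 and 35.5 CPM in PKCδ libraries (0.64 ± 0.11, adjusted p = 0.00026 and 0.00047). A gene on the other strand covers 22.4% of the exonic bases of Hdac4. Mef2a rose by 0.21 ± 0.07 (adjusted p = 0.040 and 0.00019), a call without the offset that ended without PKCδ library 2 or 3, combined library 1 or 2, or combined libraries 1 and 3. Hdac5 (0.38 ± 0.09) was not called with the offset (adjusted p = 0.38). Of the 18, 3 were higher without combined libraries 1 and 3 and 0 lower.

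Sarcomere and Z disc genes were higher in 9 of 31 cases and lower in 2 (35.5% in all), with 3 and 1 in both fits. Tpm2, β-tropomyosin, rose most among those named. It stood at 60.5, 45.8, 45 and 44.4 CPM in combined libraries, against 24.9, 23.2 and 22.5 CPM in PKCδ libraries (1.06 ± 0.24, adjusted p = 0.0032 and 0.0092). Tnnt2, cardiac troponin T, averaged 11400 ± 370 CPM in combined hearts (SD, n = 4) and 9250 ± 180 in PKCδ hearts (SD, n = 3), a rise of 0.30 ± 0.09. Myl2, the ventricular myosin light chain, fell, at 4920, 6200, 5010 and 6290 CPM in combined libraries against 7200, 6890 and 7490 CPM in PKCδ libraries (-0.36 ± 0.11). The calls of Tnnt2 and Myl2 ended without combined libraries 1 and 3 (adjusted p = 0.080 and 0.31). That of Tnnt2 also ended without PKCδ library 1 or 3, and that of Myl2 without PKCδ library 3 or combined library 1 or 3. Myh7b (0.73 ± 0.16), Mybpc3 (0.33 ± 0.09) and Myoz2 (-0.48 ± 0.10) were not called with the offset (adjusted p = 0.093, 0.26 and 0.092). Skeletal muscle markers, a list that includes Ckm and Acta1, summed to 3205 to 4602 CPM in combined libraries, against 2050 to 2730 CPM in PKCδ libraries, with 1 of 13 called higher and 1 lower. The skeletal myosin genes Myh1 and Myh4 averaged 0.32 and 1.1 CPM in combined hearts, against 0.70 and 1.12 CPM in PKCδ hearts. The part of skeletal muscle RNA in the sarcomere calls was not tested.

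The list of cardiac stress and the fetal program held 4 higher and 1 lower of 29 genes, and 2 and 1 in both fits. The 17.2% called in all was below the share of all genes. Cacna1h, a T-type calcium channel of the fetal heart, stood at 110, 77.5, 83.1 and 76.1 CPM in combined libraries, against 33.1, 39.4 and 27.6 CPM in PKCδ libraries (1.38 ± 0.31, adjusted p = 0.0039 and 0.014). PKCε hearts held 10.5 ± 2.2 CPM and wild-type hearts 8.20 ± 0.79 CPM, so PKCδ hearts already lay above those. Tnni1, slow skeletal troponin I of the fetal heart, stood at 5.47, 1.1, 4.26 and 2.06 CPM in combined libraries, against 0.77 to 0.84 CPM in PKCδ libraries (1.97 ± 0.56), and its call ended without PKCδ library 3, without combined library 1, or without combined libraries 1 and 3. Xirp2, an intercalated disc protein, fell by 0.71 ± 0.15 on the log2 scale, to 302 to 357 CPM in combined libraries, against 499 to 581 CPM in PKCδ libraries. The filamin gene Flnc (0.33 ± 0.10) was not called with the offset (adjusted p = 0.63).

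Calcium handling held 3 higher and 9 lower of 32 genes (37.5% in all), with 1 and 4 in both fits. Srl, sarcalumenin, a calcium-binding protein of the sarcoplasmic reticulum, stood at 717, 775, 710 and 794 CPM in combined libraries, against 1000, 949 and 1060 CPM in PKCδ libraries (-0.42 ± 0.07, adjusted p = 0.00026 and 0.00050). Cacna2d1, an accessory subunit of the L-type calcium channel, fell by 0.50 ± 0.09 on the log2 scale and Camk2d, the main cardiac calcium and calmodulin-dependent kinase, by 0.39 ± 0.08. With the offset these 2 falls were -0.25 and -0.20, with an adjusted p of 0.047 and 0.037. Asph (-0.31 ± 0.07) was not called with the offset (adjusted p = 0.24). Of 34 potassium, sodium and pacemaker channel genes 6 were called higher and 3 lower (26.5% in all), and in both fits 0 and 3. Kcnj8, the pore of the vascular ATP-sensitive potassium channel, stood at 26.9, 24.1, 23.5 and 24.4 CPM in combined libraries, against 32.3, 39.0 and 34.7 CPM in PKCδ libraries (-0.51 ± 0.11, adjusted p = 0.0017 and 0.00079). Scn7a, a sodium-sensing channel, fell by 0.80 ± 0.21 and Gja5, connexin 40 of the atria, conduction system and arterial endothelium, by 0.47 ± 0.14 on the log2 scale. Both calls ended without PKCδ library 3 (adjusted p = 0.063 and 0.19). Irx4 (0.44 ± 0.12), a ventricular transcription factor, was not called with the offset (adjusted p = 0.43).

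Nuclear-encoded subunits of the respiratory chain were called lower in 15 of 50 cases and higher in 3 (36% in all). In both fits 9 were lower and 1 higher. The median log2 fold change was -0.12, and -0.06 with the offset. Uqcrc2, a core protein of complex III, stood at 235, 295, 253 and 280 CPM in combined libraries, against 441, 430 and 486 CPM in PKCδ libraries (-0.77 ± 0.10, adjusted p = 1.5e-05 and 2.5e-05). Its exonic bases overlap a gene on the other strand over 19.7%. Uqcrb, another complex III subunit, stood at 17.9, 24.7, 14.4 and 27.5 CPM in combined libraries, against 59.5, 41.5 and 54.7 CPM in PKCδ libraries (-1.29 ± 0.31), and its call ended without combined libraries 1 and 3 (adjusted p = 0.10). Ndufa9 of complex I (-0.41 ± 0.07), the electron carrier gene Cycs (-0.59 ± 0.10) and Cox6b1 of complex IV (-0.36 ± 0.06) fell. All 3 were lower in each combined library than in any PKCδ library. Of the 50, 0 were higher and 5 lower without combined libraries 1 and 3.

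Genes of fuel oxidation were also counted. Of 42 genes of fatty acid uptake and oxidation, 2 were called higher and 8 lower, and 0 and 4 in both fits. The 23.8% called in all was near the 23.7% of all genes. Hadh, which catalyses the third step of β-oxidation, stood at 306, 322, 402 and 312 CPM in combined libraries, against 482, 499 and 469 CPM in PKCδ libraries (-0.53 ± 0.11, adjusted p = 0.00095 and 0.0019). Decr1, an auxiliary enzyme for unsaturated fatty acids, fell by 0.68 ± 0.12 on the log2 scale. Acadvl, the very long chain dehydrogenase, fell by 0.38 ± 0.07, with 42.9% of its exonic bases shared with a gene on the other strand and its counts uncertain for that reason. Acads (0.35 ± 0.08) was not called with the offset (adjusted p = 0.51). Branched-chain amino acid catabolism held 3 higher and 11 lower of 26 genes (53.8% in all), but 1 and 1 in both fits. Bcat2, the mitochondrial transaminase of the first step, rose by 0.59 ± 0.14 and Mut, methylmalonyl-CoA mutase at the end of the path, fell by 0.61 ± 0.12. Ppm1k (-0.49 ± 0.09), the phosphatase that activates the path, and Dbt (-0.50 ± 0.12) were not called with the offset (adjusted p = 0.081 and 0.10).

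Regulators of these pathways were mixed, with 5 higher and 3 lower of 22 (36.4% in all), and 1 and 1 in both fits. Esrra, the nuclear receptor ERRα, rose by 0.42 ± 0.11 (adjusted p = 0.0094 and 0.013), a call that ended without PKCδ library 1 or 3 or combined libraries 1 and 3. Ppargc1a (-0.56 ± 0.14), the coactivator PGC-1α, Ppargc1b (0.40 ± 0.10) and Gabpa (-0.42 ± 0.09) were not called with the offset (adjusted p = 0.057, 0.27 and 0.15). Of 35 genes of glucose transport and glycolysis, 2 were called higher and 3 lower (14.3%, below the share of all genes), and 0 and 1 in both fits. The gene called in both fits was Gbe1, the glycogen branching enzyme, at 11.4, 12.4, 10.7 and 11.3 CPM in combined libraries against 23.3, 20.1 and 18.8 CPM in PKCδ libraries (-0.85 ± 0.15).

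Receptors and regulators of G proteins, 37 genes, held 2 higher and 8 lower (27% in all), and 2 and 4 in both fits. Agtr1a, the angiotensin II type 1a receptor, stood at 28.3, 35.1, 25.7 and 32.5 CPM in combined libraries, against 18.3, 17.7 and 20.6 CPM in PKCδ libraries (0.69 ± 0.14, adjusted p = 0.0012 and 0.00045). PKCε hearts held 37.5 to 39.4 CPM, against 14.8 to 18.7 CPM in wild type, a rise of 1.20 ± 0.14 (adjusted p = 9e-06). Ednra, the endothelin A receptor, fell to 33.7, 33.4, 41.3 and 32.1 CPM in combined libraries, against 57.0, 48.7 and 55.2 CPM in PKCδ libraries (-0.61 ± 0.12). Rgs5, a regulator of G proteins in pericytes, fell by 0.88 ± 0.12 on the log2 scale.

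Of 72 matrix and fibrosis genes 0 were called higher and 4 lower (5.56%, against 12.5% of all genes higher and 11.3% lower). With the offset 0 were higher and 4 lower, against 5.89% of all genes lower. In both fits 2 were lower, the laminin gene Lama2 (-0.65 ± 0.10) and the proteoglycan gene Ogn (-1.14 ± 0.32), whose call ended without PKCδ library 3 or combined libraries 1 and 3. Lum (-0.90 ± 0.27) and Fbln5 (-0.34 ± 0.10) were not called with the offset (adjusted p = 0.087 and 0.17). Interferon response genes were lower in 11 of 52 cases (21.2%) and higher in 0. Their median log2 fold change was -0.23 and their median GC content 47.0%. In both fits 4 were lower, among them Irgm1 (-0.69 ± 0.15), an immunity-related GTPase, the nuclear body gene Sp100 (-0.62 ± 0.15) and Ifit3 (-1.05 ± 0.27), which has a near-identical copy and is uncertain. Ddx58 (-0.53 ± 0.15), the RNA sensor RIG-I, was not called with the offset (adjusted p = 0.063). Of the 52, 0 were called in either direction without combined libraries 1 and 3. Of 19 core clock genes 3 were higher and 2 lower (26.3% in all), and in both fits Rorb alone, a nuclear receptor. Rorb stood at 3.67, 3.22, 4.51 and 3.02 CPM in combined libraries against 1.87, 1.26 and 1.82 CPM in PKCδ libraries (1.12 ± 0.28). Its call ended without combined libraries 1 and 3 (adjusted p = 0.073). The clock repressor gene Nr1d2 (-0.52 ± 0.15) was not called with the offset, and neither was Por (0.50 ± 0.10), the 1 called gene of 18 clock outputs (adjusted p = 0.20 and 0.071).

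The NRF2 and redox list held 5 higher and 7 lower of 45 genes (26.7% in all), and 1 and 5 in both fits. Gpx1, which reduces hydrogen peroxide, stood at 109, 88.1, 95.2 and 91.9 CPM in combined libraries, against 67.8, 66.1 and 53.9 CPM in PKCδ libraries (0.62 ± 0.13, adjusted p = 0.0018 and 0.016). The peroxiredoxin gene Prdx1 fell by 0.67 ± 0.14 on the log2 scale, with an adjusted p of 0.051 without combined libraries 1 and 3, and Gstm7, a glutathione transferase with close paralogs, by 0.52 ± 0.11. Keap1 (0.30 ± 0.07), which holds NRF2 in check, was not called with the offset (adjusted p = 0.55).

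Genes of DNA replication and the cell cycle were higher in 10 of 48 cases and lower in 1 (22.9% in all). In both fits 9 were higher and 1 lower. The median of the list was 0.30, and 0.45 with the offset, against 0.01 over all genes in either fit. Those that rose were E2f1 and E2f8, transcription factors of the E2F family, the helicase subunits Mcm2, Mcm4, Mcm5 and Mcm7, Rrm2, a subunit of ribonucleotide reductase, the mitotic cyclin Ccnb1 and the microtubule regulator Stmn1. E2f1 stood at 16.4, 9.89, 13.8 and 8.17 CPM in combined libraries, against 4.51, 5.19 and 4.77 CPM in PKCδ libraries (1.32 ± 0.24, adjusted p = 0.00037 and 0.0038). Mcm5 stood at 31.5, 17, 22.5 and 17 CPM in combined libraries, against 10, 11.3 and 11.2 CPM in PKCδ libraries (1.02 ± 0.21, adjusted p = 0.0014 and 0.0034). Rrm2 stood at 9.70, 3.30, 6.93 and 2.2 CPM in combined libraries, against 1.87, 1.34 and 1.29 CPM in PKCδ libraries (1.88 ± 0.39). In each of these 3 genes combined libraries 1 and 3 were the higher ones, and libraries 2 and 4 still lay above all PKCδ libraries.

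The other genes that rose are given by their means or folds. Mcm2 averaged 36.5 ± 13 CPM in combined hearts and 17 ± 1.6 CPM in PKCδ hearts (SD, n = 4 and 3; 1.1 ± 0.23), Mcm7 22.7 ± 4.7 CPM in combined and 13.9 ± 0.77 CPM in PKCδ hearts (0.70 ± 0.16), and Stmn1 19.8 ± 4.7 CPM in combined and 10.8 ± 2.0 CPM in PKCδ hearts (0.87 ± 0.19). Mcm4 (0.42 ± 0.11), E2f8 (0.94 ± 0.25) and Ccnb1 (1.38 ± 0.51) rose too, but the call of Mcm4 ended without PKCδ library 1 and that of E2f8 without combined library 1. That of Ccnb1, at 0.69 to 2.42 CPM in combined libraries against 0.34 to 0.61 CPM in PKCδ libraries, ended without any PKCδ library or without combined library 1 or 3. Cenpf, a kinetochore protein, went the other way, at 23.8, 23.8, 26.4 and 22.6 CPM in combined libraries against 38.3, 36.7 and 45.2 CPM in PKCδ libraries (-0.73 ± 0.16). Wild-type hearts held 20.9 ± 3.6 CPM of Cenpf. Without combined libraries 1 and 3, 2 of the 48 genes were called higher and 1 lower, the calls of E2f1 and E2f8 being kept and those of Mcm2, Mcm4, Mcm5, Mcm7, Rrm2, Ccnb1 and Stmn1 ending (adjusted p = 0.056, 0.16, 0.052, 0.083, 0.10, 0.66 and 0.059).

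Because E2f1 rose with genes of replication, promoters of the replication and cycle genes were searched for the E2F motif, spelled TTTGGCGC or TTTCGCGC, on both strands. RefSeq windows of 300 bases, 250 before and 50 after the annotated start (GRCm38.p6), matched by symbol for 7 of the 9 genes that rose. The motif was found in 2 of the 7, Mcm5 and Mcm7, against 4 of 31 other genes of the list with a window, and in 0.813% of all 32851 windows. Mcm7 has a second window, in which the motif was not found. The matching windows are shown with the motif in capitals; in Mcm5 a match on each strand overlaps, at -153 and -149 from the start. A match describes the letters of the window and no binding.
Mcm5, chromosome 8, plus strand, chr8:75109259-75109558: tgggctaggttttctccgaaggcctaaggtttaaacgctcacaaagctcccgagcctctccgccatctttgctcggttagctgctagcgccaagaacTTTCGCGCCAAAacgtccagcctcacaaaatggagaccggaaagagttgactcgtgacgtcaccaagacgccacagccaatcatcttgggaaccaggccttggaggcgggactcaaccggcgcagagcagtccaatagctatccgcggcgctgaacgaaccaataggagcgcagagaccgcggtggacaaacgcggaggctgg
Mcm7, chromosome 5, minus strand, chr5:138171834-138172133: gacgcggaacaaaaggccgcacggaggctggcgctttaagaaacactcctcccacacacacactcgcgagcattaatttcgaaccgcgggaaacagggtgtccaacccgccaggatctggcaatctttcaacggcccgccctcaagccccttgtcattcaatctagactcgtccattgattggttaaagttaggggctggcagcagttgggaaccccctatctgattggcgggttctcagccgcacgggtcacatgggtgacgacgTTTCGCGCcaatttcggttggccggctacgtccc

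Calls among cell type markers are read against 23.7% of all genes called, and in bulk RNA fewer cells of a type and less RNA per cell cannot be told apart. Of 11 pericyte markers 0 were called higher and 5 lower (45.5%), all 5 in both fits. The list summed to 1182 to 1290 CPM in combined libraries, against 1419 to 1493 CPM in PKCδ libraries. Rgs5 stood at 110, 121, 107 and 118 CPM in combined libraries, against 217, 188 and 224 CPM in PKCδ libraries (adjusted p = 5.4e-05 and 6.6e-05). Pdgfrb (-0.31 ± 0.07), the PDGF receptor that holds pericytes to vessels, Vtn (-0.53 ± 0.12) and Mcam (-0.33 ± 0.11) fell with Kcnj8. Mcam overlapped between the groups and lost its call without any PKCδ library or without combined library 1 or 3. The 11 markers, without combined libraries 1 and 3, held 0 higher and 2 lower, Pdgfrb, Vtn and Mcam having an adjusted p of 0.090, 0.088 and 0.47.

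Endothelial markers were lower in 5 of 18 cases (27.8%) and higher in 0, and in both fits 4 were lower. They summed to 1731 to 1903 CPM in combined libraries, against 2093 to 2216 CPM in PKCδ libraries. Pecam1, the junction protein CD31, stood at 130, 140, 146 and 152 CPM in combined libraries, against 187, 187 and 204 CPM in PKCδ libraries (-0.44 ± 0.07, adjusted p = 0.00025 and 0.00050). Tek, the angiopoietin receptor, fell by 0.49 ± 0.09 on the log2 scale, beside the fall of its ligand gene Angpt1. Cdh5, the endothelial cadherin, fell by 0.31 ± 0.07 and Emcn, endomucin, by 0.70 ± 0.17. Kdr (-0.61 ± 0.20), the VEGF receptor, was not called with the offset (adjusted p = 0.059). Without combined libraries 1 and 3, 2 of the 18 were lower and 0 higher, and the calls of Cdh5 and Emcn ended (adjusted p = 0.072 and 0.093). Of 9 smooth muscle markers 1 was called higher and 1 lower (22.2%), and Mylk (-0.38 ± 0.11) was lower in both fits, though not without PKCδ library 3 or combined libraries 1 and 3.

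Macrophage and monocyte markers were called higher in 4 of 23 cases and lower in 1 (21.7% in all), and in both fits 2 and 0. Csf1r, the receptor that macrophages depend on, stood at 106, 100, 103 and 105 CPM in combined libraries, against 76.9, 74.8 and 74.7 CPM in PKCδ libraries (0.46 ± 0.09, adjusted p = 0.00063 and 0.010). The complement gene C1qc rose by 0.57 ± 0.09, and C1qa (0.48 ± 0.08), Tyrobp (0.42 ± 0.14) and Lyz1 (-1.09 ± 0.36), which has the paralog Lyz2, were not called with the offset (adjusted p = 0.066, 0.16 and 0.073). The list summed to 575 to 625 CPM in combined libraries, against 493.7 to 525.9 CPM in PKCδ libraries. Fibroblast markers held 1 higher and 3 lower of 18 (22.2%), with Dpt (-0.54 ± 0.12) and Ddr2 (-0.48 ± 0.11) lower in both fits, Dpt not without PKCδ library 3 or combined libraries 1 and 3. Ventricular myocyte markers held 5 higher and 1 lower of 14, 2 and 1 in both fits, and 1 and 0 without combined libraries 1 and 3. Their median was 0.18, and 0.03 with the offset. Among the higher ones was Ckm, muscle creatine kinase, at 2400 ± 62 CPM in combined hearts and 1680 ± 220 CPM in PKCδ hearts (0.51 ± 0.11). Atrial markers held 0 called of 12, and their sum overlapped, at 1254 to 1594 CPM in combined and 1438 to 1576 CPM in PKCδ libraries. Dbh, the noradrenaline-making enzyme of sympathetic nerves, stood at 0.28, 0.88, 0.50 and 0.55 CPM in combined libraries, against 4.17, 3.18 and 2.72 CPM in PKCδ libraries (-2.59 ± 0.36). It was the 1 called of 11 Schwann cell and nerve markers, whose sum overlapped between the groups (142.1 to 152.6 CPM in combined and 144.2 to 152.3 CPM in PKCδ libraries). Lists of neutrophils, T and NK cells, B and plasma cells, mast cells, erythroid cells and platelets, and lymphatic endothelium held 0 called genes of 3, 5, 6, 4, 5 and 6 tested. The part of cell composition in the calls of vascular and interferon genes was not tested.

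**Figure D3:**
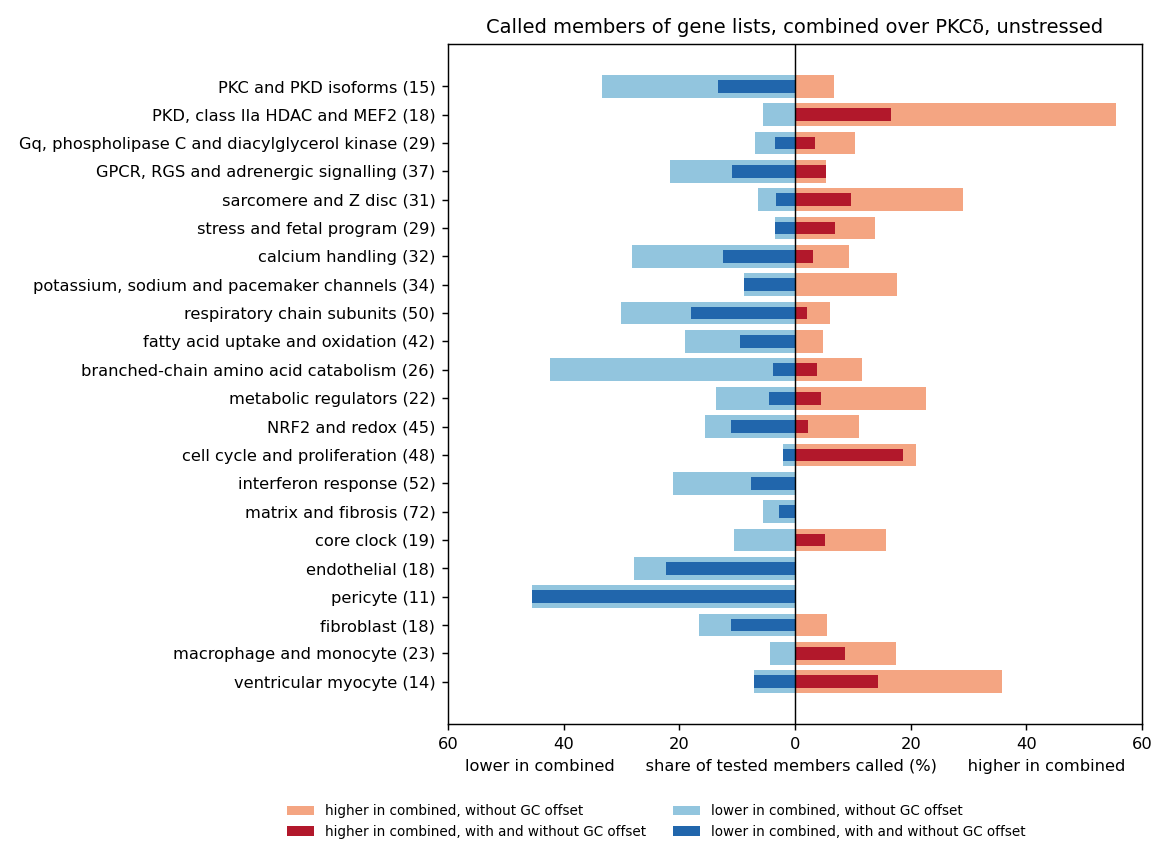
Share of the tested members of 22 gene lists called higher (right) or lower (left) in combined hearts, with the number tested in brackets. Wide bars are calls without the GC offset and narrow bars those made with and without it; 5 of 11 pericyte markers were lower and 9 of 48 cell cycle genes higher in both fits, against 4.62% and 5.07% of all genes.

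**Figure D4:**
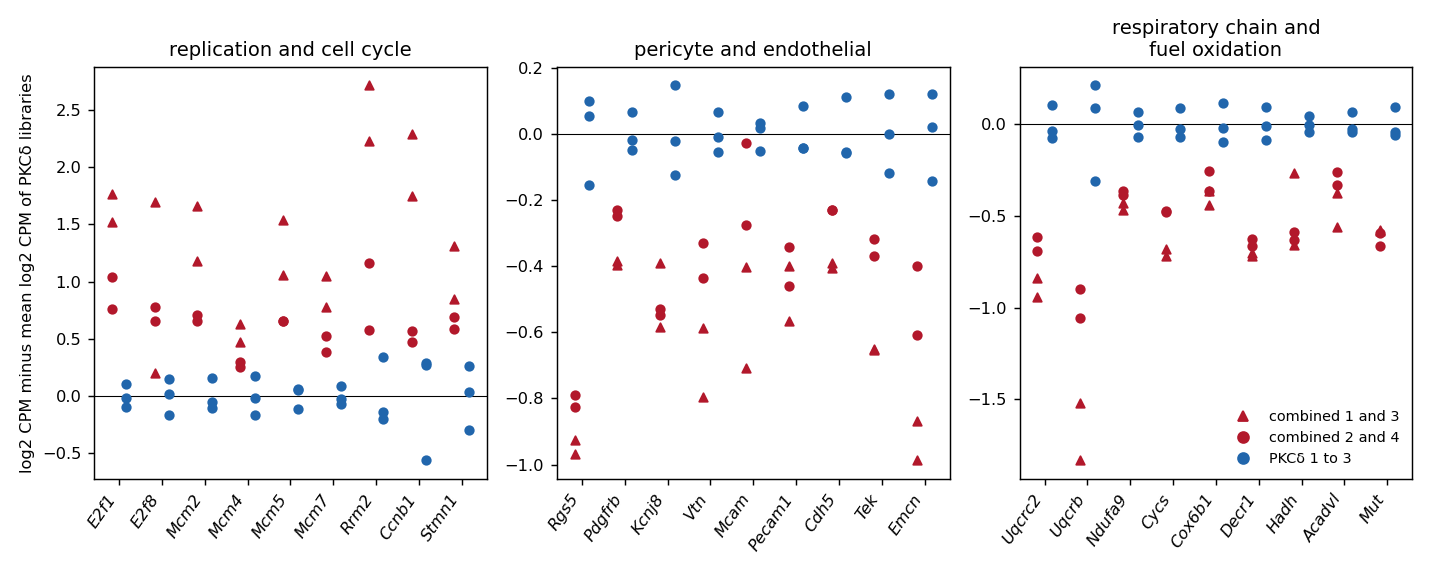
Log2 CPM of each combined and PKCδ library minus the mean log2 CPM of the PKCδ libraries, for genes of replication and the cell cycle, vascular markers, and genes of the respiratory chain and fuel oxidation. Triangles are combined libraries 1 and 3, which held Y-linked transcripts; they lie highest in most replication genes, and Mcam is the gene whose groups overlap.

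The same PKCε knockout was also made on a wild-type background, with no library in common, where 410 genes were called (2.98%), 214 higher (1.55%) and 196 lower (1.42%) in PKCε over wild-type hearts, and 106 without PKCε library 1. Of these, 108 were among the 3267 called on the PKCδ-ablated background, 26.3% of the list on the wild-type background and 3.31% of that on the PKCδ-ablated one, with 65 in the same direction and 43 in the opposite one. With the GC offset 474 genes were called on the wild-type background (3.44%; 1.92% higher, 1.53% lower) and 90 were shared, 65 in the same direction and 25 opposite. Across all genes the fold changes had a Pearson r of 0.10, and 0.15 with the offset, given as a description since genes are not independent replicates. Prkce, Cyfip2, Agtr1a and Mef2a were called in the same direction on both. Mef2a was higher by 0.45 on the log2 scale in PKCε over wild-type hearts (adjusted p = 0.00071), at means of 120 and 88.0 CPM. Cyfip2 stood at 373, 480 and 36.6 CPM in PKCε libraries, against 54.2 to 60.7 CPM in wild type, so that PKCε library 3 lay below every wild-type library and the others above. The difference between the 2 effects, tested as an interaction, was called in 2125 genes (15.4%), 1151 of them more positive on the PKCδ-ablated background (8.36%) and 974 more negative (7.08%). With the offset it was called in 860 (6.25%; 3.2% more positive, 3.05% more negative). Without the offset, the 2125 fell to 988 without PKCδ library 3 and to 1025 without PKCε library 1. Sex-chromosome markers were mixed on the wild-type background too. Wild-type libraries 1 and 4 held Y-linked transcripts (49.7 and 58.1 CPM) and libraries 2 and 3 held Xist (136.3 and 171.6 CPM). PKCε library 1 held both, library 2 Y-linked transcripts (55.85 CPM) and library 3 Xist (161.5 CPM). With a Y-linked score in place of the sex label the interaction called 2390 genes.

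Tgm2, the tissue transglutaminase, fell on the wild-type background, to 113.5, 119.6 and 123.9 CPM in PKCε libraries against 413.7 to 468.7 CPM in wild type (-1.91 ± 0.17, adjusted p = 4e-07). On the PKCδ-ablated background it stood at 423, 342, 374 and 352 CPM in combined libraries and 391, 371 and 357 CPM in PKCδ libraries. The difference was 1.90 ± 0.22 (adjusted p = 4e-05 and 7.9e-05). A gene on the other strand covers 21.8% of the exonic bases of Tgm2. C1qa, Mast1, Ftl1 and Sfswap were called lower on the wild-type background and higher on the PKCδ-ablated background, with differences of 0.92 ± 0.12, 1.59 ± 0.23, 0.91 ± 0.14 and 0.67 ± 0.09. With the offset the differences of C1qa, Mast1, Ftl1 and Sfswap were still called, at 0.53, 1.19, 0.59 and 0.53. C1qa and Sfswap were then not called higher on the PKCδ-ablated background (adjusted p = 0.066 and 0.084), nor Ftl1 lower on the wild-type one (adjusted p = 0.11). The neuronal kinase gene Mast1 and the ferritin light chain gene Ftl1 share 25.0% and 26.5% of their exonic bases with genes on the other strand. Fam131a, at 40.6 to 48.6 CPM in combined libraries and 20.4 to 26.1 CPM in PKCδ libraries, had a difference of 0.97 ± 0.14.

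In the other direction Dbh rose with PKCε loss on the wild-type background, at 3.54 to 4.16 CPM in PKCε libraries and 1.30 to 2.63 CPM in wild type, and fell on the PKCδ-ablated one, a difference of -3.69 ± 0.47 (adjusted p = 4e-05 and 5.8e-05). Hmcn1, a matrix protein gene, and Entpd5, a nucleotidase of the endoplasmic reticulum, also rose on the wild-type background (0.59 ± 0.09 and 0.40 ± 0.08) and fell on the PKCδ-ablated one (-0.42 ± 0.09 and -0.43 ± 0.08). Cds2, an enzyme that makes CDP-diacylglycerol for phosphoinositide synthesis, stood at 169, 157, 173 and 165 CPM in combined libraries and 252, 267 and 264 CPM in PKCδ libraries (-0.65 ± 0.08), against 0.15 ± 0.08 in PKCε over wild-type hearts. The difference of Kcnj14, 5.24 ± 1.88, was not called (adjusted p = 0.063 and 0.11), and that of Fmn1, -3.86 ± 1.19, was not called with the offset (adjusted p = 0.033 and 0.073). Rgs4 and 2210015D19Rik had differences of -1.83 ± 0.25 and -1.60 ± 0.20. Of the respiratory chain genes 14 of 50 were called in the difference and 13 with the offset, and of the cell cycle genes 8 of 48 and 4, against 15.4% of all genes and 6.25% with the offset, so the cell cycle list lay near the share of all genes. In PKCε over wild-type hearts 0 genes of either list were called, against 2.98% of all genes.

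**Figure D5:**
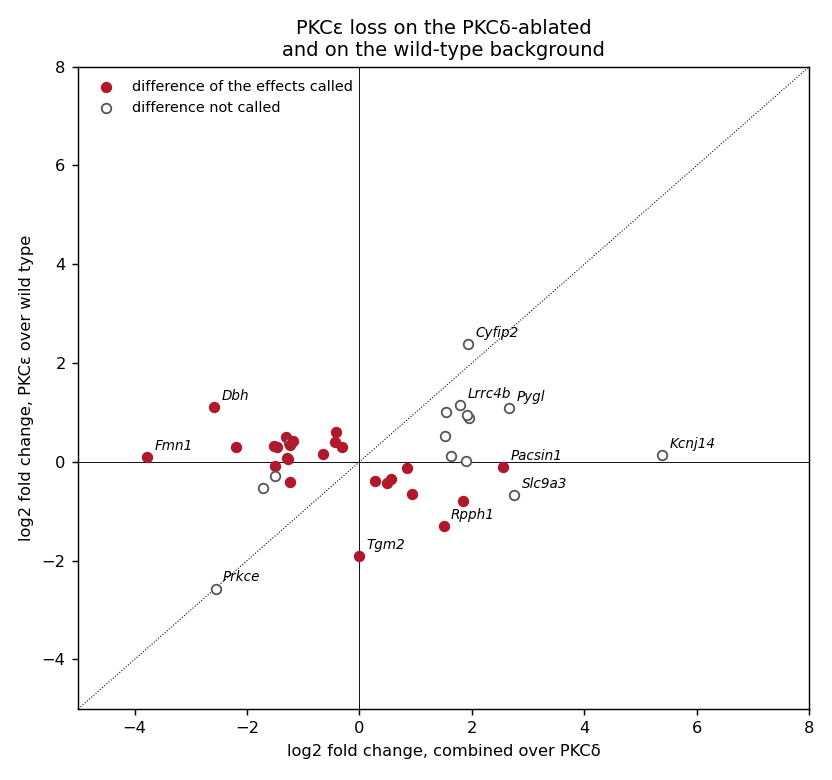
Log2 fold change of 40 named genes with PKCε loss on the PKCδ-ablated background (x axis) and on the wild-type background (y axis); the dotted line marks equal effects and filled points are genes whose difference was called. Prkce and Cyfip2 lie near the line, while Dbh and Tgm2 lie away from it. Fmn1 and Kcnj14 lie away too, but the difference of Fmn1 was not called with the offset and that of Kcnj14 in neither fit.

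After TAC the same addition of PKCε loss to PKCδ ablation gave 663 called genes (4.82%), 429 higher (3.12%) and 234 lower (1.7%), and 631 with the offset (4.58%; 3.15% higher, 1.43% lower), with n = 4 and 3. All 3 PKCδ TAC libraries held both Xist (43.9 to 64.2 CPM) and Y-linked transcripts (25.7 to 36.4 CPM). Combined TAC library 1 held 63.8 CPM of Y-linked transcripts with 25.25 CPM of Xist. Combined TAC libraries 2 to 4 held Xist at 112.3 to 170.6 CPM with at most 1 Y-linked read. Sex by these markers is thus partly confounded with genotype after TAC too. In the library labelled replicate 2 of combined ablation with TAC, Prkce stood at 31.5 CPM, the highest of the group, contrary to that label. The count was 1287 without it, 61 without PKCδ TAC library 1 and 4 when the 7 TAC libraries were fitted alone. Of the 663, 144 (21.7%, against 23.7% of all genes) were called in unstressed hearts too, 72 in the same and 72 in the opposite direction. Without that library and wild-type TAC replicate 2, 357 were shared, 265 in the same and 92 in the opposite direction. Kcnj14 rose after TAC too (3.22, adjusted p = 0.034), at 2.58 to 67.0 CPM in combined and 1.95 to 2.13 CPM in PKCδ libraries. Its combined TAC libraries were very uneven, with a mean of 20.6 CPM and a larger SD of 31.0 CPM (n = 4). Fmn1 was not called after TAC (1.34, adjusted p = 0.38), with PKCδ libraries at 1.69 to 2.40 CPM. Of the 48 cell cycle genes 1 was higher and 1 lower after TAC, of the 50 respiratory chain genes 0 and 0, and of the 72 matrix genes 24 and 0. Whether the effects differ between unstressed and TAC hearts was not tested.

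Calls were also counted by distance from the targeted genes. Within 20 Mb of Prkce 29 of 95 tested genes were called (30.5%) and 16 with the offset (16.8%), against 23.7% and 13.1% of all genes. Within 5 Mb of Prkce 10 of 32 were called (31.2%) and 4 with the offset (12.5%). Within 1 Mb of it these were 3 of 12 (25%) and 1 (8.33%). Within 20 Mb of Prkcd, whose ablation both groups share, 46 of 168 were called (27.4%), and 26 with the offset (15.5%). Within 1 Mb of Prkcd 9 of 29 were called (31%) and 1 with the offset (3.45%). Gm6548 was the 1 gene of those named for a large fold change, other than Prkce, within 10 Mb of Prkce. Some of the others lie on the same chromosome as each other. Kcnj14, Ush1c and Lrrc4b, which rose, start at 45816467, 46195350 and 44442487 on chromosome 7. Fmn1, Cd59a and Pla2g4b, which fell, start at 113327664, 104095753 and 120033433 on chromosome 2. Calls around these genes were not counted, and the part of position in them was not tested.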

How the data were processed

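Polyadenylated RNA of mouse ventricular apex was sequenced without strand information, per the labels' protocols, and the authors deposited raw read counts per gene symbol for 29 libraries. The submitters' processing notes name the mm10 build, TopHat2 2.0.10, Bowtie2, HTSeq, DESeq and edgeR, with no roles given. The counts of each library were used as deposited; those in the series matrix were the same for every name shared with the library files, while 25 names stood in the matrix alone. They were tested with edgeR 4.0.16 (R 4.3.3, limma 3.58.1) by its quasi-likelihood test with TMM scaling, filterByExpr, group means and the sex label, on all 29 libraries (20 residual degrees of freedom), with Benjamini-Hochberg adjustment over 13765 genes at 0.05. The sex label is male in all unstressed libraries, so it adjusted nothing for sex in the comparison of combined with PKCδ hearts. A score of Y-linked transcripts in its place gave 3415 calls. The wild-type and TAC comparisons came from the same fit, and DESeq2 1.42.0 was an alternative. The GC offset was a lowess curve (span 0.3) of log2 CPM on transcript GC content in each library.

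Genes named were Prkce and Prkcd, the 15 highest and 15 lowest fold changes among called genes whose groups did not overlap and whose mean log2 CPM reached 2, up to 4 of each pathway list by adjusted p, called cell type markers, and up to 6 per direction of the interaction. Genes and lists were chosen with earlier results of these data known. On simulated counts for the comparison of combined with PKCδ hearts (13596 genes, 200 changed), 47.8%, 82.1% and 95.5% of 1.5-fold, 2-fold and 4-fold changes were recovered, with 5 false calls of 155. The data gave 3267 calls, far more than the 200 changes simulated, so these shares do not give the error rate of the real comparison. A few genes that the rule names are not reported here.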

Additional observations from a re-analysis of the deposited data

Results flagged for a closer look

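In 8 of 129 named genes 1 of the 4 combined libraries stood apart from the other 3 by Dixon's criterion, which chance gives in about 1 of 20 groups. Combined library 1 was high in Tpm2 (60.5 CPM, others 44.4 to 45.8), Scn7a (5.75, others 4.51 to 4.69) and C1qa (65.8, others 58.9 to 60.1). It was low in Ppm1k (50.8, others 63.0 to 64.5) and Lama2 (100.2, others 127.4 to 130.5). Combined library 3 was high in Hadh (402.2, others 306.1 to 322.3) and Ednra (41.3, others 32.1 to 33.7) and low in Entpd5 (117.8, others 134.2 to 136.6).

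The effect of PKCε loss differed between the PKCδ-ablated and the wild-type background in 25 of 40 genes tested by the interaction in edgeR, 22 of them with the GC offset too. Of all genes 15.4% were called, and 6.25% with the offset. The 40 were the targeted genes, genes named for large fold changes and genes chosen because the interaction called them. That choice raised their share, which is therefore no result about them. The log2 difference was positive in Rpph1 (2.80), Pacsin1 (2.67), Ush1c (2.65), Tgm2 (1.90), Mast1 (1.59), Fam131a (0.97), C1qa (0.92), Ftl1 (0.91) and Sfswap (0.67). It was negative in Fmn1 (-3.86), Dbh (-3.69), Cntn2 (-2.48), Rgs4 (-1.83), Plekhh1 (-1.81), Cd59a (-1.77), 2210015D19Rik (-1.60) and Angpt1 (-1.57). Smaller negative differences were those of Anxa1 (-1.43), Uqcrb (-1.37), Nacad (-1.33), Hmcn1 (-1.02), Abat (-0.83), Entpd5 (-0.83), Cds2 (-0.80) and Prkcd (-0.62). With the offset Fmn1, Uqcrb and Abat had an adjusted p of 0.073, 0.091 and 0.073.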

How the results depend on the processing

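RLE scaling (1786 higher, 1468 lower), removal of Rn45s (1795 and 1480), DESeq2 (3286 genes) and no filter on low counts (2940) left the count of 3267 within 1.5 times. The GC offset and the removal of combined libraries 1 and 3 were chosen after seeing the data. That removal leaves combined libraries 2 and 4, which differed little from each other. Genes called numbered 1803 with the GC offset, 1690 with it and a Y-linked score, 1164 without combined libraries 1 and 3, and 486 with both the offset and that removal. Higher genes numbered 992, 879, 617 and 252 in that order, lower genes 811, 811, 547 and 234, and 2-fold changes 193, 180, 164 and 97. The interaction called 860, 958, 783 and 257. The TAC comparison called 1286 with the Y-linked score, 1141 with it and the offset, 1262 without 2 doubtful libraries, and 4 with its own groups alone. Combined over wild-type hearts gave 2263 without combined libraries 1 and 3, and 2123 with the offset too.

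Same-numbered libraries did not pair (r = 0.07, -0.02 and -0.03). The fit with the replicate block called 3145 genes. With the block and the GC offset it called 1743, of which 965 were higher, 778 lower and 188 at least 2-fold, and 851 in the interaction.

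Leaving out each library in turn gave 1439 to 3182 calls, 716 to 1690 higher, 723 to 1492 lower and 188 to 334 at least 2-fold. The ranges were 106 to 487 for PKCε over wild type, 988 to 2370 for the interaction, 61 to 1287 after TAC and 2878 to 3936 for combined over wild type. Of 120 called genes named for combined over PKCδ hearts, leaving out those named for the interaction alone, 94 were called with the offset, 69 without combined libraries 1 and 3, 40 with both, and 88 without PKCδ library 3, with 0 reversed in any alternative.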
